A study of Mus musculus with 18 samples.

Results

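Liver of adult mice lacking Pcgf6 was compared with wild-type liver across all genes. The comparison used 6 of the 18 poly-A RNA libraries of the series, 3 from wild-type (WT) and 3 from Pcgf6 knockout (KO) animals, and 14124 of 52636 genes had enough reads to be tested. All were male C57BL/6 mice aged 8 weeks; WT carried the intact gene and KO is labelled only as a knockout of Pcgf6, with no treatment named for either group. The labels do not say which exons were removed, whether the loss was restricted to a tissue or which animal gave which library, so p values measure only the spread between these libraries. WT libraries are called 1 to 3 and KO libraries 4 to 6, and the data columns number them 1 to 3 in each genotype, so that WT 1 and KO 4 share a number, as do WT 2 and KO 5, and WT 3 and KO 6. Libraries that share a number are called pairs.

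Pcgf6 is a RING-finger protein that defines the variant polycomb complex PRC1.6. In that complex it works with the ubiquitin ligases Ring1 and Rnf2, the chromatin reader L3mbtl2 and the DNA-binding partners Mga with Max and E2f6 with its Dp partner. The complex occupies promoters of germ cell genes and is known for keeping them silent outside the germ line. Adult liver consists mainly of hepatocytes, which make plasma proteins, bile acids, glucose and lipids, with Kupffer cells, endothelial cells, stellate cells and bile duct cells between them.

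The libraries held 18990130 to 23529098 reads and 19973 to 20902 detected genes each. Summed hepatocyte markers came to 94904 to 110952 CPM (reads scaled to the library's total) in WT and 94795 to 112133 in KO, and no marker of the list was at 0. Markers of spermatids, the haploid cells of the testis, were not alike across the libraries. The 9 markers (among them the protamines Prm1 and Prm2, the transition proteins Tnp1 and Tnp2 and the sperm proteins Odf1, Akap4 and Smcp) came to a sum of 0.201, 0.0906 and 0.371 CPM in WT 1 to 3, of 0 in KO 4, and of 4.93 and 6.19 in KO 5 and KO 6. All 9 had reads in KO 5 and in KO 6, and none had a read in KO 4. In WT 1 and WT 2 only Prm2 had reads, 4 and 2 of them. Germ line results are therefore given library by library, with KO 4 named.

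Pcgf6 itself, on chromosome 19, measured 4.99, 4.08 and 5.66 FPKM (fragments scaled by gene length and library size, as deposited) in the WT libraries, against 2.66, 1.66 and 1.44 in KO 4, KO 5 and KO 6. Each KO library lay below each WT library. The log2 difference within pairs was -0.89, -1.25 and -1.91, lower in 3 of 3 pairs. In limma, with Benjamini-Hochberg adjustment over all tested genes, its log2 fold change was -1.35 ± 0.24 (SE) with an adjusted p of 0.485, and 0.282 with the pairs as a block. The files give 1 value per gene, so the exons that hold the remaining reads are not shown. Of the 5 other genes of the Pcgf family, which define the other polycomb complexes, 0 were higher in KO and none was separated by genotype (median log2 fold change -0.09), while without WT 1 the median was -0.01 and 2 of 5 were higher. Of 15 other subunits of PRC1.6, 8 were higher and 7 lower, 0 were separated by genotype, and the median was 0.003, against 0.00074 over all tested genes. Among all tested genes 9.52% were separated in either direction, so a count of 0 in lists this short does not set them apart. Max measured 8.48, 9.79 and 9.01 FPKM in WT and 9.58, 11.2 and 11.4 in KO, and Mga 2.94, 3.56 and 2.87 against 3.61, 3.54 and 3.93.

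Across all genes, 3 rose in KO liver and none fell, which is 0.0212% and 0% of the genes tested (adjusted p under 0.05 in limma; 618 genes had an unadjusted p under 0.05). With the pairs as a block, 2 rose (0.0142%) and none fell (0%), with 1075 genes at an unadjusted p under 0.05. The 3 genes were Mael, Syce1 and Slc25a31, and Slc25a31 was not called under the block (adjusted p = 0.122) and passed in 5 of 16 alternatives. All 3 had enough reads for the test through KO libraries only and so had to be higher. This held for 32 tested genes, while 16 entered through WT libraries only. With no read filter, Mael (limma adjusted p = 0.00588) and Syce1 (0.0258) still rose, Slc25a31 did not pass (0.0634), and the pseudogene Gm16276 fell. Run on the recovered reads, limma voom called Syce1 and the meiotic gene Tex11, with an adjusted p of 0.0335 for Tex11, 0.0844 for Mael and 0.221 for Slc25a31. A fit over all 18 libraries, which lets the tissues share 1 estimate of the spread, called 63 genes higher and 24 lower in liver, the 3 genes among them. As a measure that needs no adjustment, every KO library lay above every WT library for 4.94% of tested genes and below for 4.58%. KO was higher within 3 of 3 pairs for 14.6% of genes and lower for 14.4%.

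Mael encodes a protein needed to silence transposons in male germ cells. It had 0 reads in all WT libraries and measured 18.8, 8.82 and 17.5 FPKM in KO 4, KO 5 and KO 6, at least 125-fold higher against a floor of 3 reads per library. KO 4, the library with no spermatid marker read, had the highest level. Its log2 fold change was 7.17 ± 0.30 (SE; limma adjusted p = 0.000639; 0.0049 as a block), higher in 3 of 3 pairs by 7.56, 6.48 and 7.46. Compared on the CPM scale, KO liver held 1.69% of the level in WT testis.

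Syce1, a component of the synaptonemal complex that joins meiotic chromosomes, likewise had 0 reads in WT. It measured 2.13, 1.72 and 1.53 FPKM in KO 4 to 6, at least 12.6-fold higher, and KO 4 was again the highest. The within-pair log2 differences were 4.48, 4.19 and 4.03. They too only restate the KO levels, as every WT library was at 0 reads. The log2 fold change was 4.23 ± 0.21 (SE, limma adjusted p = 0.00104, and 0.0132 as a block). Slc25a31, a mitochondrial nucleotide carrier of sperm and their precursors, measured 0, 0.123 and 0.0946 FPKM in WT and 5.72, 2.91 and 5.26 in KO. KO 4 held the highest value here too, and the groups did not overlap. On the log2 scale it was 4.80 ± 0.38 (SE; limma adjusted p = 0.0203), with 5.86, 3.76 and 4.78 within the pairs. Its KO level was 8.93% of that in WT testis in CPM, the largest share of these 3 genes; Syce1 stood at 0.616%. With KO 4 alone against the WT libraries, in a fit that takes the lone library to vary like the others, the log2 fold changes were 7.56 for Mael, 4.48 for Syce1 and 5.16 for Slc25a31, with limma adjusted p of 0.00848, 0.13 and 0.229.

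Further genes of the list of PRC1.6 germline targets showed the same order of the genotypes without passing the test. Ddx4 encodes Vasa, an RNA helicase of germ cells. It had 0, 0 and 2 reads in WT, or 0, 0 and 0.0445 FPKM, and 0.634, 0.471 and 0.897 FPKM in KO (limma adjusted p = 0.117). Its within-pair log2 differences were 2.88, 2.51 and 2.79. Tex11, an X-linked meiotic gene, had 0 reads in WT and 11, 14 and 15 reads in KO 4, KO 5 and KO 6 (limma adjusted p = 0.145), at least 4.71-fold higher. Lower folds on higher levels were seen for Tdrkh, a Tudor protein of the piRNA pathway, at 0.54, 0.905 and 0.776 FPKM in WT and 1.39, 1.29 and 1.77 in KO. Zcwpw1, a histone reader of meiotic recombination, measured 0.728, 0.7 and 1.08 in WT and 1.72, 1.28 and 1.21 FPKM in KO. Meiob, a single-strand binding protein of meiosis, overlapped by 1 library (4.16, 3.53 and 5.28 against 6.87, 5.23 and 6.67 FPKM).

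Not all germ line genes followed. Gpat2, an acyltransferase linked to piRNAs, measured 1.06, 1.29 and 1.33 FPKM in WT and 1.09, 1.25 and 0.97 in KO. Sycp3, of the axes of meiotic chromosomes, spanned 0.517 to 1.43 FPKM in WT and 0.244 to 0.816 in KO. In all, 11 of the 30 listed targets were tested: 9 were higher, 3 were called (0.0212% of all tested genes rose) and 7 lay above WT in every library (4.94% of all tested genes), with a median log2 fold change of 0.93. The list was chosen with earlier results of these data known and holds the 3 called genes. Its shares are therefore a description and not a test. Of the 11, 5 (Mael, Slc25a31, Syce1, Ddx4 and Tex11) passed the read filter through KO libraries only and so had to be higher, and of the other 6 Tdrkh and Zcwpw1 were separated, with a median over these 6 of 0.32. For the piRNA list 8 of 25 members were tested, of which Mael and Ddx4 passed the filter through KO only, and the median over the other 6 was 0.001. For meiosis 10 of 32 were tested, of which Syce1 and Tex11 passed through KO only, and the median over the other 8 was 0.20.

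**Figure D1:**
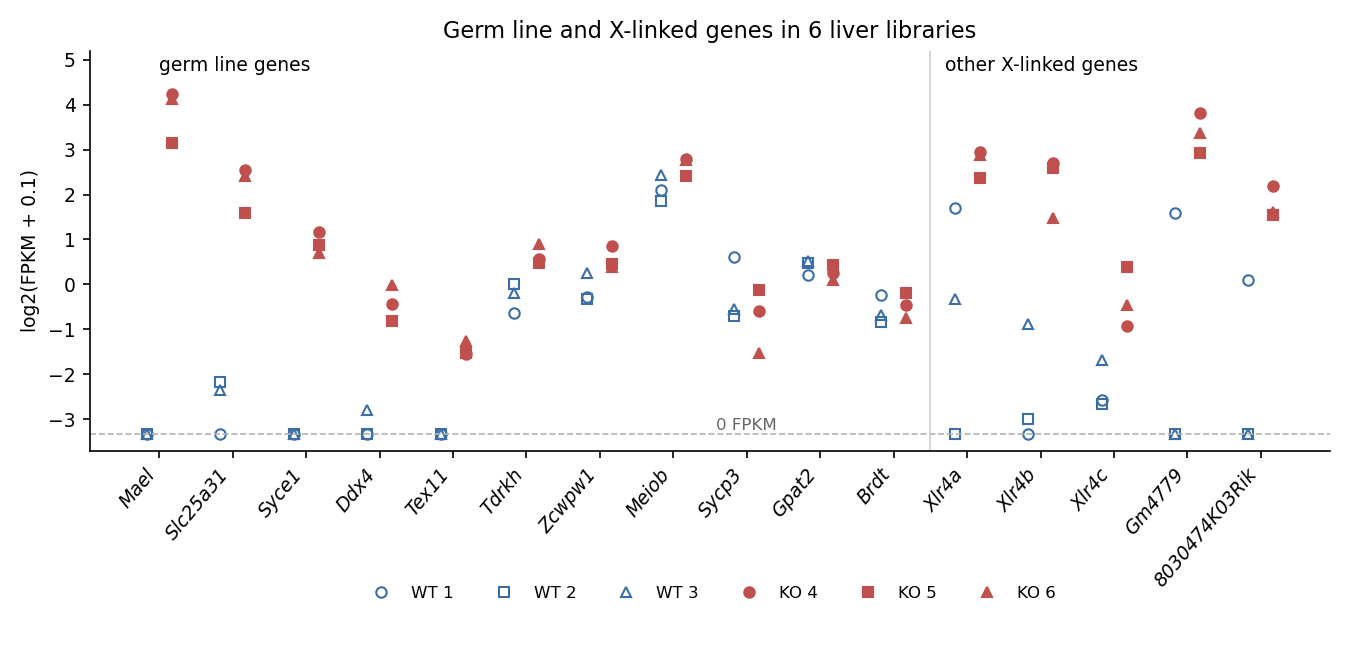
Level of 11 germ line genes and 5 other X-linked genes in each liver library, as log2(FPKM + 0.1), with open symbols for WT 1 to 3, filled symbols for KO 4 to 6 and the same shape for a pair. Mael, Syce1 and Tex11 lie on the dashed line of 0 FPKM in every WT library and above it in every KO library, while the genotypes overlap for Sycp3 and Gpat2.

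The remaining 19 targets had too few reads for the test, and most of their reads lay in KO 5 and KO 6. Together they held 16, 21 and 15 reads in WT 1 to 3, 21 in KO 4, 63 in KO 5 and 94 in KO 6. Tuba3a and Tuba3b, testis tubulins of near-identical sequence whose reads may be shared out between them, had 0 reads each in KO 4, 7 and 5 in KO 5, and 9 and 13 in KO 6. Rbm46, a germ cell RNA-binding protein, was an exception in part, with 1, 3 and 3 reads in WT and 8, 24 and 23 in KO. The part of spermatid RNA in these low counts was not tested. Taf7l had no read at all, and Dazl had 3 reads in WT and 6 in KO.

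**Figure D2:**
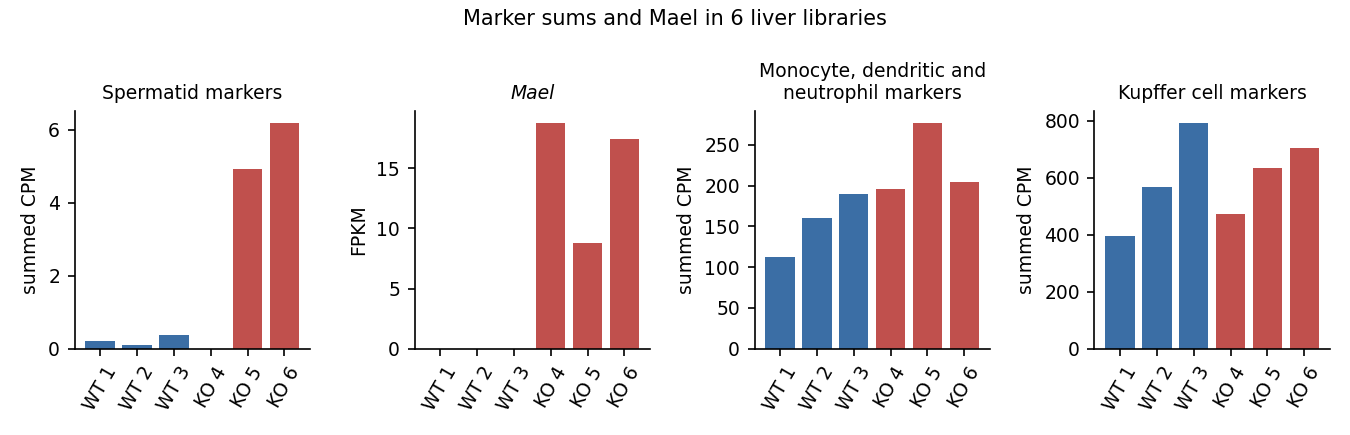
Summed CPM of 9 spermatid markers, Mael in FPKM, and summed CPM of the marker lists for monocytes with dendritic cells and neutrophils and for Kupffer cells, with 1 bar per liver library. Spermatid markers are at 0 in KO 4 and at 4.93 and 6.19 CPM in KO 5 and KO 6, while Mael is highest in KO 4.

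The promoters of the called genes and of Ddx4 are shown because these genes differed together; each runs from 250 bases before to 50 after the annotated start, 5′ to 3′ on the gene's strand, from RefSeq on GRCm38.p6. Capitals mark CACGTG, the E-box letters that Max-containing dimers are known to bind, and TCCCGC or its reverse complement GCGGGA, the core letters of E2F sites. Both motifs were chosen with these sequences seen and do not overlap each other. The windows are chr1:166238695-166238994 on the minus strand for Mael, chr7:140787805-140788104 on the minus strand for Syce1, chr3:40708621-40708920 on the plus strand for Slc25a31 and chr13:112652261-112652560 on the minus strand for Ddx4.
Mael: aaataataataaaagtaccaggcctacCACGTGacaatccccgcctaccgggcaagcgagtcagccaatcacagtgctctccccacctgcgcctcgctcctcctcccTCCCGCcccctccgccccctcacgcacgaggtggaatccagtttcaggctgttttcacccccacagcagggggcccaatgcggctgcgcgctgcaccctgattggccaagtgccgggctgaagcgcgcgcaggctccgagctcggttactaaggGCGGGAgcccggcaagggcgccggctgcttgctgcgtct
Syce1: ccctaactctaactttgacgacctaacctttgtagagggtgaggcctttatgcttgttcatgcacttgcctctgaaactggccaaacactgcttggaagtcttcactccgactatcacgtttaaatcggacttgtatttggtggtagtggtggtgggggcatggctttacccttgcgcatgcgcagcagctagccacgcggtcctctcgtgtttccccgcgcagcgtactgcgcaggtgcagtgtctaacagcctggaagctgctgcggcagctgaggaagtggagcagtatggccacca
Slc25a31: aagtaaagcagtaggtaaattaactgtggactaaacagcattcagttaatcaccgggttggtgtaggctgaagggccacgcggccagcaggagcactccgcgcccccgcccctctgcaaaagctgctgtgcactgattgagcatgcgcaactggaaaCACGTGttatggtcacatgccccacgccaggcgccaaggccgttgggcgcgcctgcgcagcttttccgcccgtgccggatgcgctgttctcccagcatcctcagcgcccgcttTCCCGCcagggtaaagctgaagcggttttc
Ddx4: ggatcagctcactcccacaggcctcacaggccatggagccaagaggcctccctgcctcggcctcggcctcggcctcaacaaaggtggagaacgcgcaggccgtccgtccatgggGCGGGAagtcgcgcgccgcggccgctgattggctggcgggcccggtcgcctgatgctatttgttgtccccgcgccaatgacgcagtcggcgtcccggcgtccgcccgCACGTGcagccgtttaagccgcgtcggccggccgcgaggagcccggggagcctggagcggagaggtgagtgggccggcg
Mael, Slc25a31 and Ddx4 each hold CACGTG 1 time, and TCCCGC on either strand 2 times in Mael and 1 time each in the others. Syce1 holds neither in this window. Over 27025 promoters of this length, 7.24% hold CACGTG, 5410 hold TCCCGC and 2.05% hold both. Of the 27 listed germline targets found in the table, 13 hold CACGTG and 14 hold TCCCGC. Sycp3, which holds both, was tested and was lower in KO, with overlapping groups. Gpat2, with TCCCGC only, was not higher either (log2 fold change -0.14), and Brdt, with CACGTG only, was not separated by genotype. Hormad1, with both, and Stk31, with CACGTG only, had too few reads to be tested. They had 0 reads in WT, and 1 and 2 reads in KO.

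Another group of genes higher in KO lay on the X chromosome. Xlr4a, Xlr4b and Xlr4c are nearby members of a family of X-linked, lymphocyte-regulated genes, with sequences alike enough that reads may be shared out between them. Xlr4b measured 0, 0.0255 and 0.446 FPKM in WT and 6.44, 5.95 and 2.69 in KO (log2 fold change 4.66 ± 0.67, SE; limma adjusted p = 0.349, and 0.0365 without WT 3). Xlr4c measured 0.0675, 0.0586 and 0.21 FPKM in WT and 0.428, 1.21 and 0.623 in KO. For Xlr4a the values were 3.14, 0 and 0.7 against 7.63, 5.08 and 7.25 FPKM. No KO library of the 3 genes overlapped a WT library.

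Gm4779 and 8030474K03Rik, which lie side by side on opposite strands elsewhere on the X chromosome, shared a pattern over the libraries. Gm4779 had 2.9 FPKM in WT 1 and 0 in WT 2 and WT 3, against 14, 7.48 and 10.2 in KO. Similarly, 8030474K03Rik had 0.978 FPKM in WT 1, 0 in WT 2 and WT 3, and 4.45, 2.83 and 2.97 in KO. WT 1 was the only WT library with reads of either gene, and without it both were called, at log2 fold changes of 6.69 and 5.11 (limma adjusted p = 0.00358 and 0.00404) against 0.686 and 0.586 with it. Dcaf12l1, another X-linked gene, stood at 1.49, 1.18 and 1.92 FPKM in WT and 3.25, 3.29 and 3.15 in KO. Of 419 X-linked genes tested, 35 lay higher in every KO library and 15 lower, or 8.35% and 3.58%, beside 4.94% and 4.58% of all tested genes. A similar lean was seen on chromosome 13, at 7.24% and 4.57%. There, 21.0% of genes were higher in 3 of 3 pairs, beside 18.6% on the X chromosome.

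Genes with the lowest unadjusted p among those lower in every KO library included Ide and Rps4l, neither of which passed adjustment. Ide, the insulin-degrading enzyme, measured 35.1, 37.8 and 33.5 FPKM in WT and 21.5, 22.2 and 22.7 in KO, 62.4% of WT, with little spread in either group. It was lower by 0.70, 0.77 and 0.56 on the log2 scale within the pairs (-0.68 ± 0.08, SE; limma adjusted p = 0.145; 0.245 as a block). Ide lies on chromosome 19, 9.7 Mb from Pcgf6. Rps4l, a transcribed processed pseudogene of a ribosomal protein gene on chromosome 6, measured 19.4, 23.5 and 30 FPKM in WT and 7.43, 2.46 and 4.5 in KO (-2.43 ± 0.37, SE; limma adjusted p = 0.406).

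Srp54a, a gene for the signal recognition particle with near-identical copies beside it, so that its reads may be split, measured 2.56, 3.52 and 2.81 FPKM in WT. In KO it had 0.212, 0.229 and 0.924 (limma adjusted p = 0.477, and 0.0191 without KO 6). C730036E19Rik, a long non-coding RNA of chromosome 1, measured 57.8, 56.2 and 59.6 FPKM in WT and 35.8, 35.8 and 43.1 in KO. Ppia, the abundant proline isomerase cyclophilin A, which has many processed copies that may share its reads, measured 154, 168 and 142 against 110, 80.2 and 103 FPKM. Hdhd3 (27.6, 38.7 and 28.4 against 19.6, 20 and 18.5 FPKM) and the unnamed transcripts Gm44744, Gm45148 and AC144949.1 were lower in every KO library. Being so was a condition for genes chosen by smallest p. AC144949.1 lies 6.73 Mb from Pcgf6. Of 159 tested genes within 10 Mb of Pcgf6, 2 lay above and 8 below in every KO library, or 1.26% and 5.03%, beside 4.94% and 4.58% of all tested genes. As3mt, an arsenite methyltransferase encoded near Pcgf6, measured 31, 25.3 and 23.1 FPKM in WT and 23.7, 23.2 and 17.2 in KO.

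Among genes higher in KO that are not of the germ line, C1qtnf4 had the smallest p. C1qtnf4, a secreted protein of the C1q and TNF-related family, measured 0.175, 0.203 and 0.572 FPKM in WT and 2.22, 2.9 and 2.28 in KO (log2 fold change 2.74 ± 0.35, SE; limma adjusted p = 0.214, and 0.0267 without WT 3). Dnaja4, a co-chaperone of the heat shock system, measured 1.07, 1.35 and 1.14 against 2.64, 4.87 and 3.66 FPKM, 3.14-fold higher. Camk2b, a subunit of a calcium-dependent kinase, measured 2.3, 2.33 and 2.66 FPKM in WT and 5.21, 6.45 and 4.1 in KO. Fhit, a dinucleoside hydrolase, was 2.21-fold higher (1.11, 1.1 and 1.4 against 2.46, 3.03 and 2.49 FPKM) and Ptp4a3, a phosphatase, 2.17-fold (1.55, 2.32 and 1.87 against 4.62, 4.02 and 3.83 FPKM). Sult1c2, a sulfotransferase, measured 1.39, 1.74 and 1.67 against 2.8, 2.87 and 2.89 FPKM. None of these genes passed the test over the 6 liver libraries. Their groups did not overlap, which was a condition for genes chosen by smallest p. Every KO library lay above every WT library for 4.94% of all tested genes.

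A few genes had reads in 1 genotype only, here 3 or more reads in each library of that genotype and 0 in the other. On the KO side there were 5 genes: Mael, Syce1, Tex11, the X-linked 3830403N18Rik with 4, 18 and 42 reads in KO 4 to 6, and Cntd1, a gene of meiotic crossover formation, with 3, 6 and 5. On the WT side there were 5 as well: Sult3a1, a sulfotransferase with 3, 5 and 4 reads, the pseudogene Gm16276 with 8, 12 and 7, and the transcripts Gm26871, Gm37983 and Gm43133, all with at most 12 reads per library.

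The pairs differed from each other in level for several liver genes. Igfbp1, a hepatic binding protein of insulin-like growth factors that rises on fasting, measured 63.6, 32.3 and 16.2 FPKM in WT and 151, 79.9 and 80.6 in KO, higher by 1.25, 1.30 and 2.31 on the log2 scale within pairs (limma adjusted p = 0.901; 0.276 as a block). Elovl3, a fatty acid elongase with higher levels in male liver, measured 141, 45.9 and 26.2 against 217, 91.2 and 75.3 FPKM. Its groups overlapped although KO was higher in 3 of 3 pairs, and it lies 0.898 Mb from Pcgf6. Cyp8b1, which sets the ratio of bile acids, had within-pair differences of 0.44, 0.36 and 0.43 (232, 172 and 146 against 315, 220 and 197 FPKM; limma adjusted p = 0.296 as a block). Of the 2068 genes higher in 3 of 3 pairs, 1370 had overlapping groups, as did 1380 of the 2027 that were lower.

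**Figure D3:**
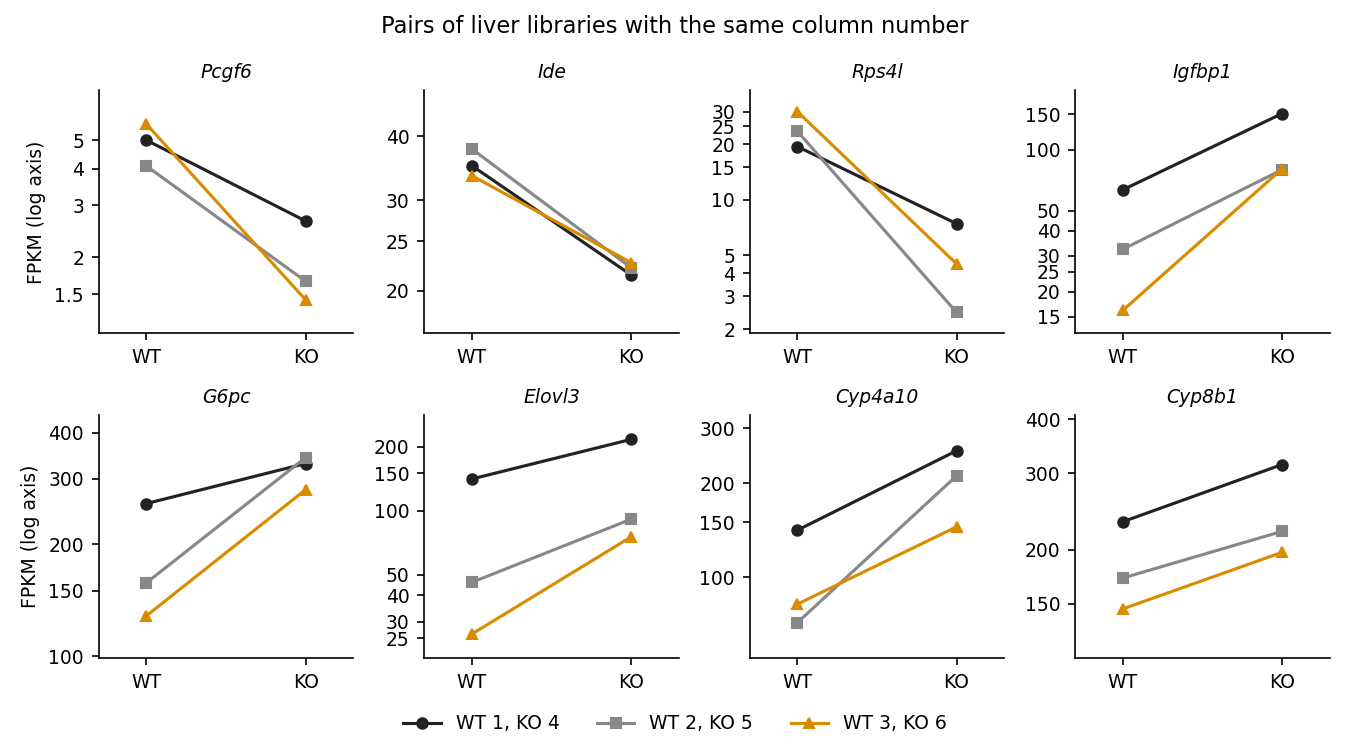
Level of 8 genes in FPKM on a log axis, with a line from the WT to the KO library of each pair. Pcgf6, Ide and Rps4l are lower in KO in all pairs and Igfbp1, G6pc, Elovl3, Cyp4a10 and Cyp8b1 higher; the groups of Elovl3 and Cyp8b1 overlap.

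Of the metabolic lists, none had a called gene, and the following counts are a description. All 25 genes of cholesterol synthesis and uptake were lower in KO (median log2 fold change -0.47; 7035 of all 14124 tested genes were lower, median 0.00074), and 13 were lower in 3 of 3 pairs. The size differed between pairs, with list medians of -0.27 in WT 1 with KO 4, -1.27 in WT 2 with KO 5 and -0.02 in WT 3 with KO 6. Without WT 2 the list median was -0.25 and 2 of the 25 were higher, and without WT 1 or KO 6 the median was -0.74 and -0.73.

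Targets of Ppara and genes of fatty acid oxidation tended the other way, with 27 of 30 higher, 18 of them in 3 of 3 pairs, and a median of 0.23. Vnn1, a pantetheinase and sensitive Ppara target, measured 11, 10.5 and 13.6 FPKM in WT and 35.5, 19.8 and 26.8 in KO (1.19 ± 0.21, SE; limma adjusted p = 0.485). Cyp4a10, a fatty acid hydroxylase, had 141, 71.4 and 81.9 against 254, 211 and 145 FPKM, and its relative Cyp4a32 25.2, 11.7 and 15 against 41.9, 24.6 and 29.1. Their sequences are alike, so reads may be split between the Cyp4a genes. Acot2, a mitochondrial thioesterase, measured 1.1, 0.893 and 0.978 against 1.7, 1.44 and 1.2 FPKM. List medians within the pairs were 0.13, 0.22 and 0.35, all higher in KO, and the median was 0.11 without WT 3, 0.14 without KO 4 and 0.36 without WT 1.

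Glucose and lipid synthesis gave mixed lists. In gluconeogenesis and fasting, 7 of 13 were higher with a median of 0.06, which was -0.13 without KO 4. G6pc, which releases glucose from the liver, measured 258, 158 and 129 FPKM in WT and 330, 342 and 281 in KO. Irs2, an insulin receptor substrate, measured 3.74, 1.6 and 1.35 against 3.68, 4.11 and 6.38 FPKM, with WT 1 and KO 4 nearly level. De novo lipogenesis had 11 of 18 higher and a median of 0.06 that turned to -0.22 without WT 1, -0.09 without KO 6 and -0.01 without KO 5. Its member Scd1, the stearoyl desaturase, measured 1035, 1056 and 1351 against 1296, 1877 and 1670 FPKM. Of the 22 genes of bile acid synthesis and transport 17 were higher (median 0.15, and 0.09 without WT 2), among them Cyp7a1, the rate-limiting enzyme of bile acid synthesis, at 70.1, 79.7 and 69.8 against 83.2, 116 and 83.2 FPKM.

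Acute phase and complement genes had 21 of 29 higher with a median of 0.14, which was 0.07 without WT 3. The orosomucoid genes Orm1, Orm2 and Orm3, near-identical copies for a plasma glycoprotein, were higher in 3 of 3 pairs; Orm2 measured 14.5, 9.87 and 13.5 FPKM in WT and 20.1, 31.3 and 18.1 in KO. Among genes of the unfolded protein and amino acid stress responses 10 of 17 were higher (median 0.04, and -0.29 without WT 1). Asns, the asparagine synthetase, stood apart in this list at 1.35, 1.22 and 0.638 FPKM in WT and 0.175, 0.141 and 0.395 in KO (-1.81 ± 0.37, SE; limma adjusted p = 0.548). Trib3 (2.73, 1.91 and 4.45 against 6.74, 3.95 and 5.49 FPKM), a pseudokinase of the same response, was higher in 3 of 3 pairs, so these members did not go one way. Imprinted genes had 13 of 17 higher and 6 higher in every KO library (4.94% of all tested genes), with a median of 0.17 that moved to 0.48 without KO 4 and 0.11 without KO 5. Peg10, a paternally expressed gene derived from a retrotransposon, measured 0.0791, 0.098 and 0.0906 FPKM in WT and 0.263, 0.281 and 0.336 in KO, and Cdkn1c, a cell cycle inhibitor, 0.591, 1.25 and 0.889 against 1.52, 1.52 and 1.82. Lists for the interferon response (12 of 22 higher), p53 targets (4 of 10), proliferation (9 of 15), heat shock (8 of 11), xenobiotic metabolism (13 of 22), the circadian clock (6 of 19), male-biased liver genes (8 of 17) and female-biased liver genes (1 of 5) had medians between -0.07 and 0.09, 5 of which changed sign when 1 library was left out. The 28 mitochondrially encoded genes had a median of 0.13 with 22 higher, and the 4 tested fetal liver genes a median of 0.34.

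**Figure D4:**
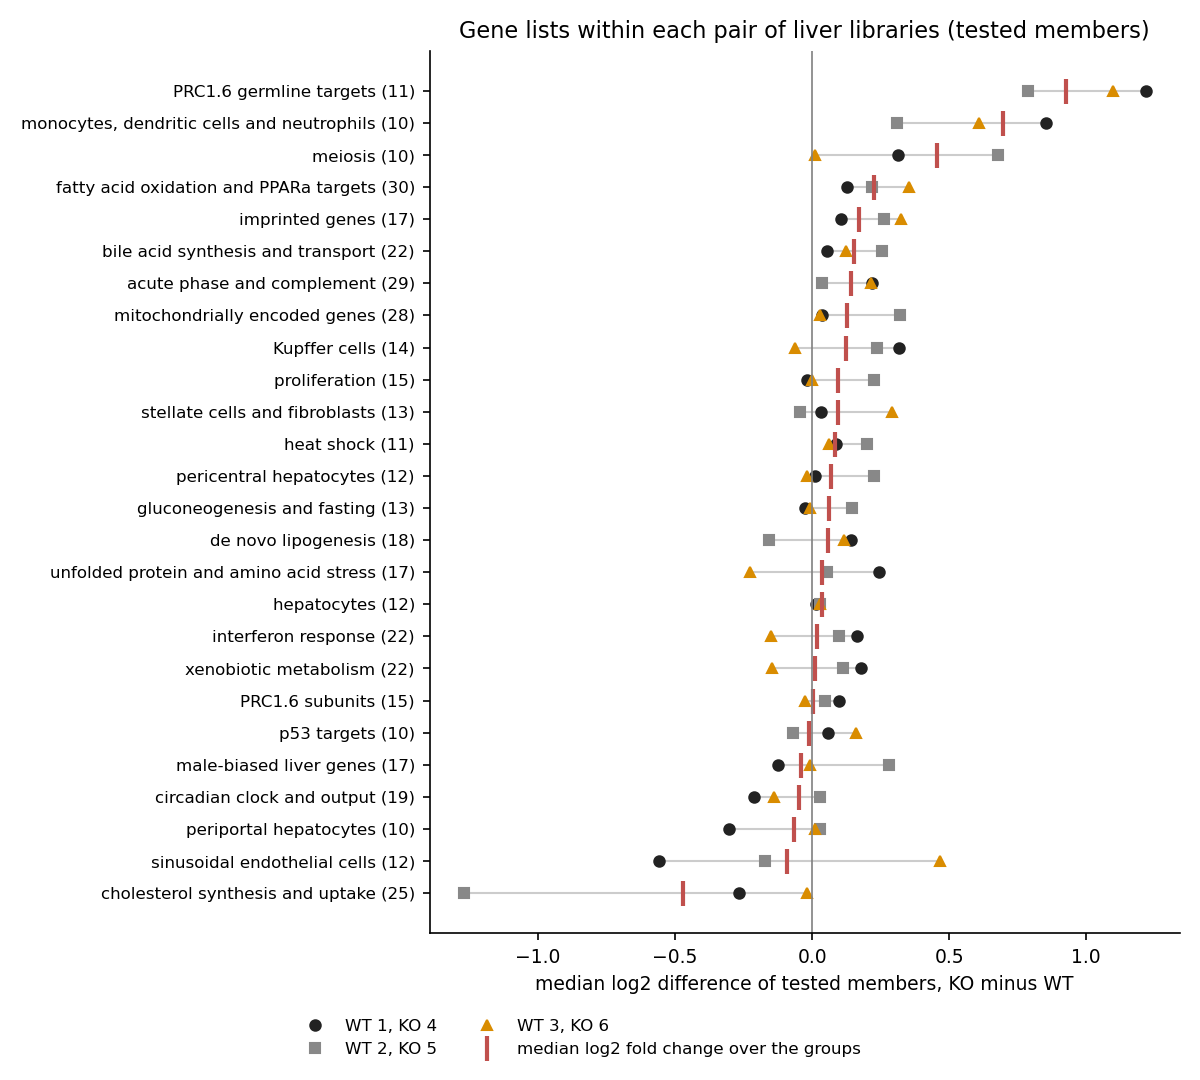
Median log2 difference, KO minus WT, of the tested members of each list with at least 10 of them, within each pair (symbols) and over the groups (red bars); the number tested is in parentheses. Pairs spread widely for cholesterol genes and sinusoidal endothelial markers, whose medians run from -0.56 to 0.47, and narrowly for hepatocyte markers.

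Markers of other liver cells were read in the same way; in bulk RNA, fewer cells of a type and less RNA per cell cannot be told apart. All 10 tested markers of monocytes, dendritic cells and neutrophils were higher in KO, 5 of them in every library, beside 4.94% of all tested genes, with a median of 0.70 and none called. Summed they made up 112, 160 and 190 CPM in the WT libraries, against 196, 277 and 205 in KO 4, KO 5 and KO 6, and of the 12 listed only Ly6g was at 0. H2-Aa, a chain of an antigen-presenting molecule, measured 9.25, 11.9 and 13.2 FPKM in WT and 16.8, 30.5 and 17.9 in KO; H2-Ab1, H2-Eb1 and Cd74 of the same machinery also lay highest in KO 5. Without WT 1 the median was 0.49 and 8 of 10 were higher. Kupffer cell markers had 13 of 14 higher but summed to 395, 569 and 792 CPM in WT and 472, 635 and 702 in KO, so the groups overlapped; without WT 1 their median was -0.16, and without WT 3 it was 0.45. Igkc, an antibody light chain from B lineage cells, measured 0.85, 2.58 and 3.41 against 4.19, 5.33 and 6.97 FPKM, and the summed lymphocyte markers overlapped (5.06 to 12.4 CPM in WT, 9.58 to 16.4 in KO).

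Sinusoidal endothelial and stellate markers varied from library to library within each genotype, with sums lowest in WT 1 and KO 4. Endothelial markers summed to 270, 494 and 336 CPM in the WT libraries and to 202, 418 and 440 in the KO libraries, and stellate and fibroblast markers to 206, 446 and 342 against 210, 396 and 440. Bile duct markers (7 of 7 higher, median 0.35) had a median of 0.21 without KO 6, and 6 of 7 were higher without KO 4 or without WT 2. They included Spp1, osteopontin, at 42.4, 21.1 and 29.9 FPKM in WT and 63.9, 35.8 and 42.6 in KO, with within-pair differences of 0.59, 0.76 and 0.51. Periportal and pericentral hepatocyte markers had medians of -0.07 and 0.07, each of which changed sign when 1 library was left out. Erythroid markers (4 of 5 higher, median 0.16) had a median of -0.10 without WT 2, with 1 of 5 higher, of 0.36 without WT 3, 0.38 without KO 6 and 0.05 without KO 5. They summed to 317 to 566 CPM in WT and 415 to 600 in KO, and those of pancreas (2 of 2 higher), adipocytes (2 of 2) and neurons with glia (3 of 4) rested on few tested genes.

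Brain, profiled in the same way from the same genotypes, was used to ask which of these differences were particular to liver. The knockout effect differed between the tissues for 0 of 12922 genes tested in both (0%; interaction term in limma; 625 genes had an unadjusted p under 0.05, and limma voom also gave 0). Of the 15 genes called in brain, 9 were tested in liver; all 9 lay in the direction they had in brain, and their groups did not overlap in liver. They were Mael, Slc25a31, Syce1, Xlr4b, Xlr4c, Gm4779 and 8030474K03Rik, higher, and Ide and Rps4l, lower, beside 9.52% of all tested genes separated in either direction. Of these, 4 (Mael, Slc25a31, Syce1 and Xlr4c) passed the filter in liver through KO libraries only. The list of 15 was written with earlier results of these data known. Whether liver and brain came from the same animals is not in the labels, so the tissues may not be independent. The size was close for Ide, at -0.68 ± 0.08 in liver and -0.67 ± 0.06 in brain (SE), and for Rps4l, at -2.43 ± 0.37 and -2.68 ± 0.13. Among the other 6, Gabra2, Klk6 and Obox3-ps7 had no read in liver, Henmt1 had 4 reads, all in KO 6, and Rbm46 and Mir378b were below the filter. The brain libraries WT 3, KO 5 and KO 6 held 9.55, 4.24 and 5.47 FPKM of Alb, the albumin transcript of hepatocytes, while WT 1, WT 2 and KO 4 held 0.0154, 0.0472 and 0.41; the part of this in the comparison was not tested.

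Differences between the tissues that came nearest to the threshold were of genes described above. C1qtnf4 had a log2 fold change of 2.74 ± 0.35 in liver and 0.04 ± 0.07 in brain (SE), where it stood at 87.6 ± 6.07 FPKM in WT (SD, n = 3), and the difference of 2.69 had a limma adjusted p of 0.16. Dnaja4 was at 1.53 ± 0.24 and -0.002 ± 0.07 (adjusted p = 0.236), and Camk2b at 1.06 ± 0.18 and -0.03 ± 0.06 (0.236 as well). Srp54a lay lower in liver and higher in brain, at -2.69 ± 0.46 and 0.44 ± 0.23 (adjusted p = 0.237). Gpat2 went the other way, with 2.16 in brain and -0.14 in liver (adjusted p = 0.236). For Syce1, whose fitted value in liver depends on the pseudocount because every WT liver library was at 0 reads, the difference did not pass either (adjusted p = 0.237).

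**Figure D5:**
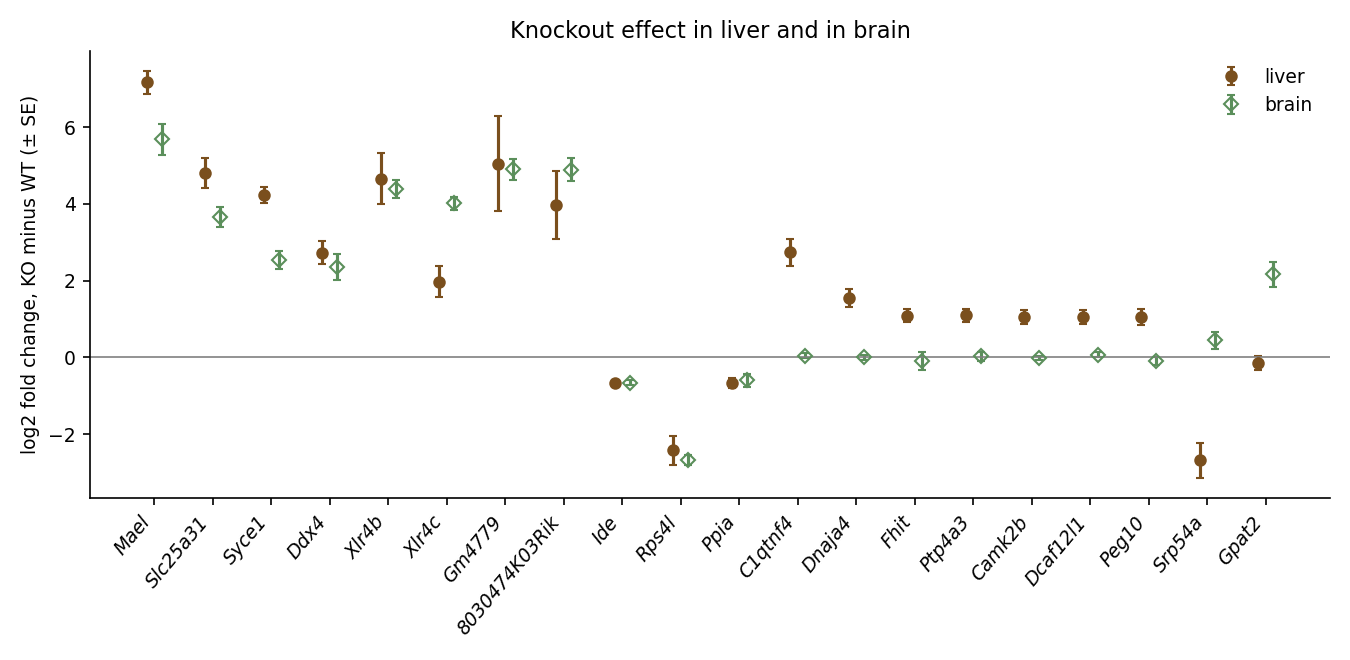
Log2 fold change, KO minus WT, of 20 genes in liver (filled circles) and brain (open diamonds) with bars of 1 SE from limma. The genes called in brain lie on the same side of 0 in both tissues, while C1qtnf4, Dnaja4, Fhit, Ptp4a3, Camk2b, Dcaf12l1 and Peg10 lie near 0 in brain. In the test of the difference between the tissues, 0 of 12922 genes were called.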

How the data were processed

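The deposited values are FPKM per gene, made by the authors from poly-A RNA libraries; the submitters' processing notes name HISAT2 2.0.5, featureCounts 1.5.0-p3 and DESeq2 1.16.1 and the build mm10. Reads behind each deposited FPKM were recovered as whole numbers, all within 0.01 reads, and give the depth. The library kit does not mark strand, per the labels' protocols, so overlapping genes cannot be told apart.

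Genes that reached 10 reads in 3 or more liver libraries were tested with limma 3.58.1 (trend) in R 4.3.3 on log2(FPKM + 0.1), with Benjamini-Hochberg adjustment over all 14124 tested genes and a threshold of 0.05. Fold changes on this scale understate the change of low genes. Effects in liver and brain were compared by an interaction term. The fit was also run on simulated data, with the same fixed spread for every gene and no pair effect. Changed genes were drawn from those that passed the filter in both liver and brain. None was set to 0 reads in a genotype, so the run does not cover genes such as Mael.

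Same-numbered libraries deviated together from their group means (r = 0.354, 0.162 and 0.299, against -0.343 to 0.060 for other combinations), so the column numbers were taken to pair the libraries and were also fitted as a block. Deviations within a group sum to 0 for each gene, so these r are not independent. The pairing remains an assumption. A fold against a group at 0 reads used a floor of 3 reads per library, which covers counting error only.

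Named genes were Pcgf6 and 3 tested genes on either side, the called genes, the 10 with the smallest p and the 10 with the largest least within-pair difference in each direction (mean of at least 1 FPKM), up to 4 members of each list, and germline targets with a read. The 10 with the smallest p were taken only from genes whose groups did not overlap. The 10 by within-pair difference were taken only from genes with the same direction in 3 of 3 pairs. Genes seen in 1 genotype only were added after their values were seen. The genes and lists were chosen with earlier results of these data known. Alternatives changed the pseudocount, the filter, the scaling, the test, the libraries fitted and each library left out. Promoters came from RefSeq on GRCm38.p6. Some members of the lists are not reported here by name.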

Additional observations from a re-analysis of the deposited data

How the results depend on the processing

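Of the 3 genes called in liver, a fit over all 18 libraries with a shared spread gave 87 (63 higher, 24 lower), and a filter on a mean of at least 1 FPKM, which tests fewer genes, gave 1, also under the block. With no read filter, Mael and Syce1 rose and the pseudogene Gm16276 fell. Leaving out 1 library at a time gave 2 to 5 calls, 5 without WT 1 and 5 without WT 3. Without KO 6, 2 genes rose and 2 fell, the latter Srp54a and 4930412C18Rik. Pcgf6 had a log2 fold change of -1.35 in the fit over all 18 libraries, with a limma adjusted p of 0.00109, and -1.60 to -1.17 with 1 library left out; its adjusted p was 0.197 or more in every other alternative. Genes whose effect differed between liver and brain numbered 1 with a mean of at least 1 FPKM in each tissue, 1 with a pseudocount of 1, and 0 to 4 with 1 library left out (1 without KO 4, 4 without KO 6, 4 without WT 3). The cause was not tested. With the replicate block 2 genes were called; beyond Slc25a31, the block changed no call. Slc25a31 passed in 5 of 16 alternatives, Mael in 14 of 16 and Syce1 in 14 of 15, with log2 fold changes of 2.36 to 6.43, 3.94 to 10.5 and 1.48 to 7.48. KO 4 alone against WT, chosen after seeing the data, called 3 genes, of which Mael rose. Depth limits genes of a few reads, such as most germline targets.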
